A study of Mus musculus with 2 samples.

Results

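Regulated exocytosis is the calcium-triggered fusion of secretory vesicles with the plasma membrane, and its machinery was examined here in whole adrenal gland as a set of 48 genes picked by name: synaptotagmins, SNARE proteins, their regulators, priming factors, Rab GTPases, vesicle membrane proteins and the disassembly factors. The names were matched to the gene rows of both libraries through the symbols that the deposited transcript table carries, and 47 of 48 were found among 55536 genes. The remaining name, Vamp7, was matched through the GENCODE M21 primary-assembly annotation, which places it on an unplaced scaffold (GL456233.1:10738-39148, mm10, minus strand), and is reported apart from the counts over members. The rule uses names alone and no measured value, although the members and the lists used below were chosen with earlier results of these data known. The tissue came from female mice aged 2 months of the strain B6CASTF1/J, a first-generation cross of C57BL/6J with CAST mice, and the labels name no treatment and no engineered allele. The 2 libraries form 1 group, biological replicates 1 and 2, each made as total RNA-seq from 300 ng of RNA with ERCC spike-ins. The sample notes name a different female for each library, whereas the library notes name the same female and the donor identifier is shared, so the spread between libraries may be that between animals or within 1 animal. No test between the libraries was made. Levels are the deposited TPM, the transcript abundance scaled to a fixed total per library, which divides by transcript length and so allows genes to be set side by side. Differences between libraries are ratios of expected counts scaled by TMM, with exact 95% intervals that cover counting error only.

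The adrenal gland holds 2 secretory tissues of different kinds. Chromaffin cells of the medulla store catecholamines with chromogranins in dense-core granules and release them by regulated exocytosis, while the steroid-producing cells of the cortex release their lipid hormones without granules. In the granule cycle, a vesicle SNARE of the VAMP family pairs with a syntaxin and a SNAP-25-type protein on the plasma membrane, Munc18 and Munc13 proteins guide that pairing, complexin and synaptotagmin tie it to calcium, and NSF with its SNAP adaptors takes the spent complexes apart.

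Some members are spliced into alternative forms, and the exons that carry the difference are printed here because the transcript results below turn on them. Snap25 has a pair of mutually exclusive exons at the same place in the transcript, exon 5 of 8. The upstream exon (chr2:136769743-136769860, mm10, plus strand, 118 bases) gives SNAP-25a, the form known from neuroendocrine cells, and the downstream exon (chr2:136770057-136770174) gives SNAP-25b, the form known from adult brain. The sequences are coding, are given 5′ to 3′ on the transcript strand from the GENCODE M21 transcripts, and have 31 differing bases (73.7% identical), which are in capitals.

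SNAP-25a exon: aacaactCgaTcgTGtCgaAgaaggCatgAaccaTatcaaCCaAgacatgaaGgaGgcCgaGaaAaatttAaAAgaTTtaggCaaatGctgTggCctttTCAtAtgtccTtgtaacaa
SNAP-25b exon: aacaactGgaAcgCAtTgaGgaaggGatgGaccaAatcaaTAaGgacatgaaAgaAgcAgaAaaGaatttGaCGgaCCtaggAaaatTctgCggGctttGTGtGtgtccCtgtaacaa

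Stx3 likewise has 2 alternative forms that each hold 2 coding exons of their own in the C-terminal part of the protein. The first of these, exon 9 of 11, lies at chr19:11783026-11783136 (mm10, minus strand, 111 bases) in one form, and downstream of it at chr19:11782800-11782910 in the other. The 43 bases that differ (61.3% identical) are in capitals.

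Stx3 upstream exon: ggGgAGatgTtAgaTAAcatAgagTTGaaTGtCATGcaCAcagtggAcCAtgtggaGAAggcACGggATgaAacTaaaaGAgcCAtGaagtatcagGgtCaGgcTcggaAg
Stx3 downstream exon: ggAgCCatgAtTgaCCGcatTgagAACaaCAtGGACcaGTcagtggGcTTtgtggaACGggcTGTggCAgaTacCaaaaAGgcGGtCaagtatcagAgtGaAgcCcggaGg

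Napb, the neuronal SNAP adaptor, has a protein-coding transcript, Napb-201, and one annotated as a target of nonsense-mediated decay, Napb-202. Exon 4 of 11 of Napb-201 (chr2:148707159-148707205, mm10, minus strand, 47 coding bases) is absent from Napb-202, and is printed whole with no capitals since nothing is aligned to it.

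Napb-201: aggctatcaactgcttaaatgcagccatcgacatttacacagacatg

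The libraries held 3.42e+07 and 3.60e+07 gene counts in replicates 1 and 2, and the members together held 553 and 561 TPM, 0.174% and 0.158% of what all nuclear genes annotated as protein coding held. Of 10 chromaffin marker genes (Th, Dbh and Pnmt of catecholamine synthesis among them) all 10 were at 1 TPM or more in both libraries, summing to 2119 and 1775 TPM, and 8 cortex genes such as Star summed to 16678 and 19174 TPM, so both tissues of the labelled gland were present. Markers of neighbouring tissue were present too. A list of 10 kidney tubule genes summed to 21.7 and 0.520 TPM with 6 of 10 at 0 counts in replicate 2, and all 8 with enough counts were higher in replicate 1. The 6 brown fat genes summed to 571 and 1164 TPM, all 6 higher in replicate 2. The part of these tissues in the members' values was not tested.

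Of the 47 members, 39 were at 1 TPM or more in both libraries and 7 were under 1 TPM in both. The levels ran from 0.005 TPM for Syt6 to 53.1 TPM for Napa, with a median of 7.94 TPM. By the mean of both libraries, the broadly expressed Napa, Vamp8, Nsf and Stxbp2 took the first 4 places, and Vamp2 was the first neuronal member, in place 5. Within single libraries Vamp2 lay above Stxbp2 in replicate 1 and above Nsf in replicate 2. Within families the order was steady between the libraries. Of 31 pairs of neighbours in the order within a family, 26 did not overlap between the libraries, and 5 did (Snap29 with Snap25, Stx3 with Stx1a, Vamp1 with Vamp4, Rab3a with Rab3d, and Rab3d with Rab3b). The second deposited transcript table, made with a different quantification, gave the same order for 26 of 31 pairs. The pairs that did not overlap and also kept this order numbered 24. In that table Nsf had a mean of 55.2 TPM, below Snap23 at 81.5, Vamp2 at 66.4 and Stx4a at 59.3. The place of Nsf in the first table includes a short fragment that was given TPM in replicate 1 alone, as described below.

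**Figure D1:**
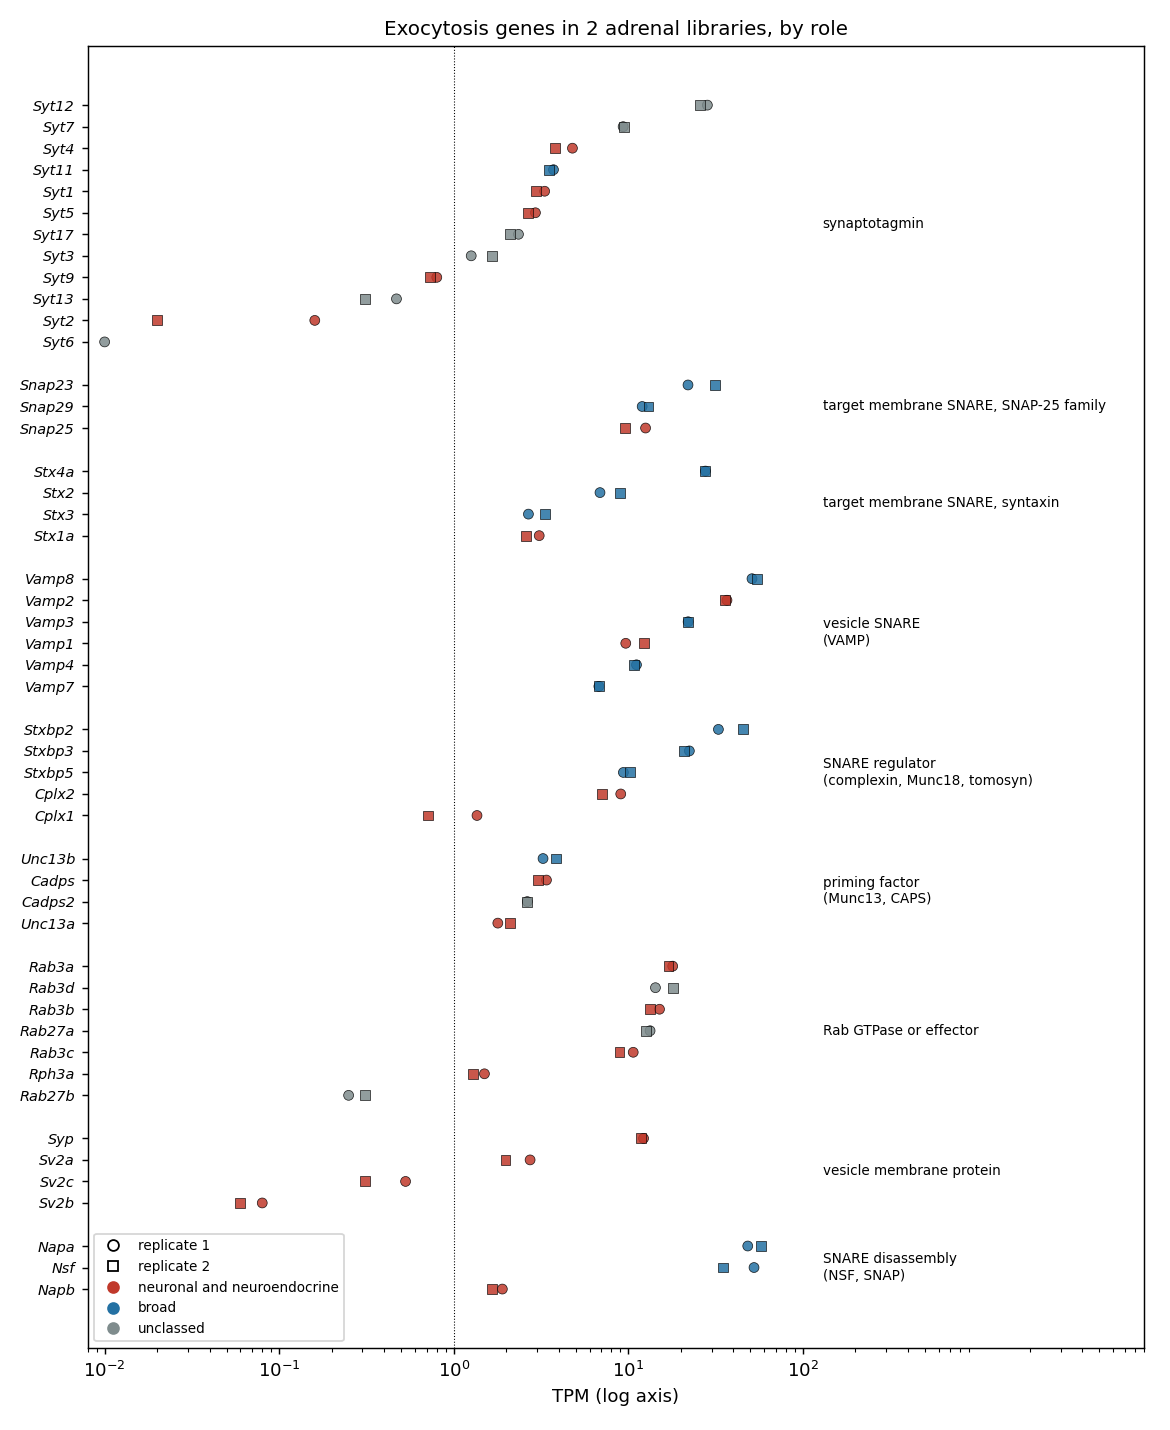
Level of each member in TPM (log axis) in replicate 1 (circles) and replicate 2 (squares), grouped by role and coloured by expression class. The dotted line is 1 TPM. Syt6 in replicate 2 is at 0 and is not drawn. Napa, Vamp8, Nsf, Stxbp2 and Vamp2 lie highest, and 7 members lie left of the line in both libraries.

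Synaptotagmins are vesicle proteins with paired C2 domains, several of which bind calcium and trigger fusion. Syt12 held 48.9% ± 0.544 (SD, n = 2) of the synaptotagmin TPM, the largest share of the 12 listed, at 28.4 TPM in replicate 1 and 25.7 in replicate 2. Syt12 is a synaptotagmin whose C2 domains are known not to bind calcium. Syt7, the high-affinity calcium sensor of dense-core granules, followed with 9.35 and 9.43 TPM, or 17.0% ± 1.13 of the family. Syt1, the fast calcium sensor of synapses and chromaffin granules, had 3.32 and 2.97 TPM. Syt12 thus stood at 2.88 times the mean level of Syt7. Syt4, found on dense-core vesicles and without calcium binding by its first C2 domain, had 4.79 and 3.82 TPM. Syt11, a relative of Syt4 that is expressed in many tissues, had 3.73 and 3.52 TPM. Syt5, a granule synaptotagmin, had 2.94 and 2.66 TPM. All of these were higher in replicate 1 by scaled counts, though Syt7 was not by TPM. Syt17 had 2.35 and 2.09 TPM. Syt3, a calcium-binding member, had 1.26 and 1.65 TPM, and was the only synaptotagmin with enough counts that was higher in replicate 2, with an interval that spanned no difference (0.897-fold to 1.58-fold). The other 4, Syt9, Syt13, Syt2 and Syt6, were under 1 TPM in both libraries. Syt2, the fast sensor of hindbrain and motor synapses, had 14 and 4 counts, and Syt6 had 2 counts and 0, where 0 allows up to 0.0834 CPM (counts scaled to the gene counts of the library).

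The SNAP-25 family supplies a pair of helices to each SNARE complex. Its broadly expressed members outweighed the neuronal one in this gland. Snap23, the form of non-neuronal cells, had 22.0 and 31.5 TPM and took 52.7% ± 7.77 of the TPM of the 3 listed members. Snap29, which acts on several inner membranes, had 12.0 and 13.1 TPM. Snap25, the neuronal and chromaffin form, had 12.6 and 9.54 TPM, 22.3% ± 6.60 of the family. The ranges of Snap29 and Snap25 overlapped. Snap25 was 1.31-fold higher in replicate 1 by scaled counts (95% interval 1.17 to 1.48), and Snap23 was 1.11-fold higher in replicate 2 (1.03 to 1.20). The share of Snap23 depended on the table, since the second quantification gave 68.3% and shares of counts, which do not divide by length, gave 40.2%, below Snap29 at 42.5%.

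Syntaxins are the membrane-anchored partners on the target side. Stx4a, the plasma membrane syntaxin of most cells, had 27.7 and 27.6 TPM and took 66.8% ± 2.62 of the 4 listed syntaxins. Stx2, another broad syntaxin, had 6.89 and 8.98 TPM. Stx3, known from epithelial apical membranes and sensory synapses, had 2.68 and 3.32 TPM. Stx1a, the syntaxin of synapses and chromaffin granule release, had 3.09 and 2.61 TPM, a range that overlapped that of Stx3. Stx1a was 1.37-fold higher in replicate 1 (1.08 to 1.75, from 167 and 123 counts), while Stx2 and Stx3 had intervals that spanned no difference.

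Among the vesicle SNAREs, Vamp8, known from endosomes and from granules of exocrine and blood cells, had 51.2 and 54.9 TPM and took 39.7% ± 0.878 of the 5 VAMPs matched by symbol. Vamp2, synaptobrevin, the main vesicle SNARE of neurons and chromaffin granules, had 36.8 and 35.9 TPM, or 27.3% ± 1.21. Vamp3, cellubrevin, its broadly expressed relative, had 22.0 and 22.1 TPM. The libraries differed little for these 3, and their order held in both. Vamp1, the synaptobrevin of spinal and motor neurons, had 9.68 and 12.4 TPM. Vamp4, of the trans-Golgi network, had 11.2 and 10.8 TPM. Vamp1 was 1.24-fold higher in replicate 2 (1.13 to 1.35), the opposite direction to Vamp2, which was 1.10-fold higher in replicate 1 (1.03 to 1.16) under TMM but lower there when scaled by the spike-ins. Vamp7, the SNARE of late endosomes and lysosomes, had 6.79 and 6.80 TPM, from 578 and 547 counts, with a 1.07-fold ratio whose interval (0.949 to 1.20) spanned no difference. By shares of counts the order was Vamp2 at 32.1%, Vamp3 at 22.6% and Vamp8 at 20.2%.

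The regulators of SNARE assembly in the set were Munc18 proteins, tomosyn and complexins. Stxbp2, Munc18-2, which serves epithelial and blood cell secretion, had 32.9 and 45.3 TPM. Stxbp3, Munc18-3, the partner of syntaxin 4, had 22.4 and 20.8 TPM. Stxbp5, tomosyn, an inhibitor that occupies syntaxin in place of a VAMP, had 9.38 and 10.3 TPM. Stxbp2 lay above Stxbp3 in both libraries and was 1.13-fold higher in replicate 2 (1.05 to 1.21). Complexins bind the assembled SNARE bundle and hold it for the calcium signal. Cplx2, the complexin of chromaffin cells, had 9.06 and 7.04 TPM and made 88.9% ± 2.75 of the complexin TPM. Cplx1, the other neuronal complexin, had 1.36 and 0.710 TPM from 86 and 35 counts. Both were higher in replicate 1, Cplx2 by 1.38-fold (1.28 to 1.49) and Cplx1 by 2.46-fold (1.66 to 3.79).

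Priming factors make docked vesicles ready to fuse. Unc13b, Munc13-2, had 3.25 and 3.85 TPM and took 64.6% ± 0.234 of the pair it forms with Unc13a, Munc13-1 of synapses, which had 1.79 and 2.09 TPM. Cadps, CAPS1, a priming factor of dense-core vesicles, had 3.40 and 3.05 TPM. Cadps2, its close relative, had 2.64 TPM in each library, so the CAPS pair was nearly even, with 54.9% ± 1.90 in Cadps. Unc13b had the interval 0.914-fold to 1.14-fold, and Cadps was 1.21-fold higher in replicate 1 (1.05 to 1.39).

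Rab3 and Rab27 proteins tether granules at the membrane. The 4 Rab3 genes lay between 17.0% and 30.3% of their family's TPM. Rab3a, the synaptic vesicle Rab, had 18.0 and 17.0 TPM. Rab3d, known from exocrine granules, had 14.3 and 18.1 TPM. Rab3b, a neuroendocrine form, had 15.1 and 13.4 TPM. Rab3a lay above Rab3b in both libraries, but Rab3d could not be placed, since its range overlapped those of both others. Rab3c, another neuronal form, had 10.7 and 8.91 TPM but the most counts of the family, 2450 and 1897, or 45.2% of Rab3 counts. Rab3c was 1.31-fold higher in replicate 1 (1.23 to 1.39) and Rab3b 1.21-fold (1.08 to 1.37), whereas the interval of Rab3d spanned no difference. Rab27a, the granule Rab of melanocytes and secretory cells, had 13.3 and 12.6 TPM and made 97.9% ± 0.401 of the Rab27 pair, with Rab27b under 1 TPM in both libraries (34 and 42 counts). Rph3a, rabphilin, an effector that binds Rab3 and Rab27, had 1.50 and 1.29 TPM.

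The vesicle membrane proteins are markers of neuronal and neuroendocrine vesicles. Syp, synaptophysin, had 12.2 and 11.9 TPM. Sv2a, the form of the SV2 transporter-like glycoprotein that is found on most such vesicles, had 2.74 and 1.98 TPM, or 83.0% ± 1.74 of the SV2 TPM. Sv2c and Sv2b were under 1 TPM in both libraries, with 125 and 92 counts for Sv2c and 13 and 7 for Sv2b. All 4 were higher in replicate 1, and Sv2a was 1.56-fold higher (1.31 to 1.86).

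In the disassembly group, Nsf, the ATPase that unwinds SNARE complexes, had 52.6 and 34.9 TPM. Napa, alpha-SNAP, the adaptor found in all cells, had 48.4 and 57.8 TPM and 96.7% ± 0.710 of the TPM it shares with Napb. Napb, beta-SNAP, its neuronal counterpart, had 1.90 and 1.65 TPM. Napa was 1.13-fold higher in replicate 2 (1.08 to 1.19), and Napb was 1.28-fold higher in replicate 1 (1.07 to 1.55).

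**Figure D2:**
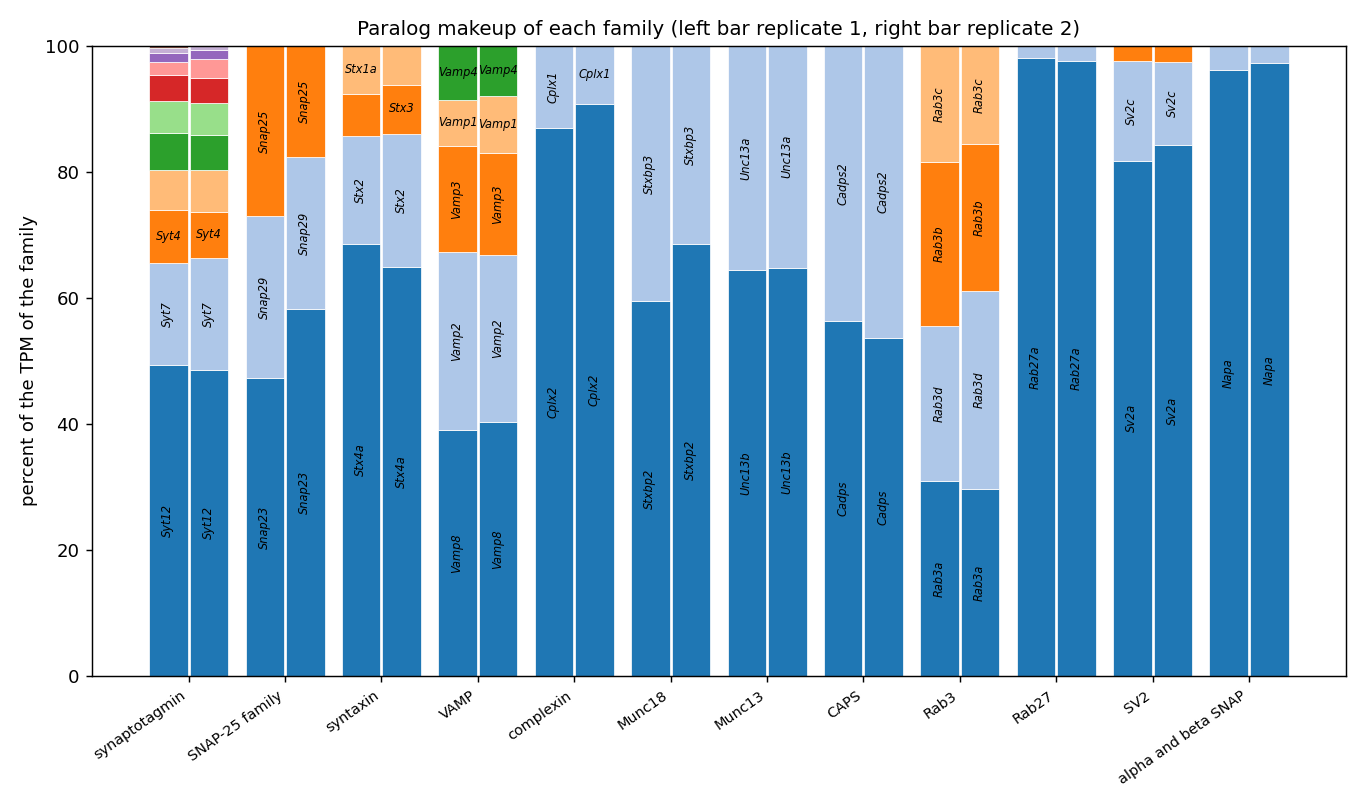
Percent of the TPM of each family in each of its members, with replicate 1 as the left bar and replicate 2 as the right bar of each pair. Syt12, Stx4a, Cplx2, Rab27a, Sv2a and Napa lead the listed members of their families in both libraries, and the tallest Rab3 segment is Rab3d at 31.5% in replicate 2.

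The members were then compared between the libraries by class. By textbook tissue distribution, 22 of the members found by symbol were classed as neuronal and neuroendocrine, 15 as broadly expressed, and 10 were left unclassed. The unclassed members were Syt3, Syt6, Syt7, Syt12, Syt13, Syt17, Cadps2, Rab3d, Rab27a and Rab27b. A member entered the counts at a mean of 10 counts or more, and 45 of 47 did. Of these, 32 were higher in replicate 1 and 13 in replicate 2. Of all 17308 genes at that minimum, 52.1% were higher in replicate 1 and 47.9% in replicate 2, and of 14555 nuclear protein-coding genes 54.6% and 45.4%. The median log2 ratio of replicate 2 over replicate 1 was -0.21 over the members and -0.02 over all genes (-0.03 over the protein-coding ones). The interval left out no difference for 26 members higher in replicate 1 and 4 higher in replicate 2, beside 23.3% and 21.6% of all genes and 25.4% and 21.7% of protein-coding genes. The ratio passed 2-fold for 1 member, Cplx1, higher in replicate 1. Past 2-fold lay 5.28% of all genes, 2.61% in that direction, and 3.11% of protein-coding genes, 1.95% in that direction.

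The classes went apart. Of 21 neuronal and neuroendocrine members with enough counts, 20 were higher in replicate 1, all but Vamp1, with a median log2 ratio of -0.36, and 16 of them had intervals that left out no difference. Of the 15 broad members, 6 were higher in replicate 1 and 9 in replicate 2, with a median log2 ratio of 0.03. The unclassed members split as 6 and 3 with a median of -0.21. Those higher in replicate 2 were Syt3, Rab3d and Rab27b, all with intervals that spanned no difference. The count of 20 of 21 therefore depends on which members were classed as neuronal and neuroendocrine. Summed, the neuronal and neuroendocrine class had 13446 and 11333 counts, 1.20-fold higher in replicate 1 after scaling, and the broad class 1.01-fold. The difference between the classes itself was not tested, since the members share 2 libraries and are not replicates. In bulk tissue, fewer cells of a type and less RNA per cell cannot be told apart. The direction of the neuronal class was kept in 17 of 21 members when the libraries were scaled by the spike-ins, under which 26.7% of all genes were higher in replicate 1, the all-gene median rose to 0.19 and the class median was -0.16. Such scaling moves all genes alike, so values relative to the all-gene median are the same with TMM and the spike-ins by arithmetic. On that basis the neuronal class lay at -0.35 and the broad class at 0.04. With TPM ratios and a pseudocount of 1 they lay at -0.20 and 0.04. The second quantification gave -0.34 and 0.00014.

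Marker genes of the medulla moved with the neuronal class. All 10 chromaffin markers were higher in replicate 1, with a median log2 ratio of -0.34, and none was at 0 counts. Chgb, chromogranin B, had 66131 and 48618 counts, and Th, tyrosine hydroxylase, had 12681 and 10528. Of 8 cortex markers, 2 were higher in replicate 1 and 6 in replicate 2, with a median of 0.14. The 10 neuron and Schwann cell markers, which summed to 9.76 and 8.50 TPM, were higher in replicate 1 in 9 of 10 cases with a median of -0.41, and none was at 0. The interval left out no difference for 4 of the 10 and spanned it for 6, and Sox10, a Schwann cell factor counted as higher, had 27 counts in each library. Among those with the largest differences, Prph, peripherin of peripheral neurons, had 40 and 8 counts and Nefm, a neurofilament, had 68 and 34, beside 86 and 35 for Cplx1. Neuronal genes of the list with more counts differed less, as Nefh had 99 and 92 and Elavl4 had 96 and 75. The 10 pancreas genes, with Ins1, Ins2 and Gcg at 0 in both libraries, summed to 22.5 and 18.8 TPM, most of it Cela1, with 702 and 622 counts. The other acinar genes were mostly in replicate 1, such as Ctrb1 with 27 and 0 counts, Pnlip with 26 and 1, Cel with 15 and 1 and Cpa1 with 12 and 0. The 3 pancreas genes with enough counts were Cela1, Ctrb1 and Pnlip. Their median log2 ratio was -4.16, while Cela1 alone had -0.19. The 10 platelet and mast cell genes, with Ms4a2 at 0 in both, summed to 9.92 and 8.53 TPM. The part of any of these cell types in the members' ratios was not tested.

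**Figure D3:**
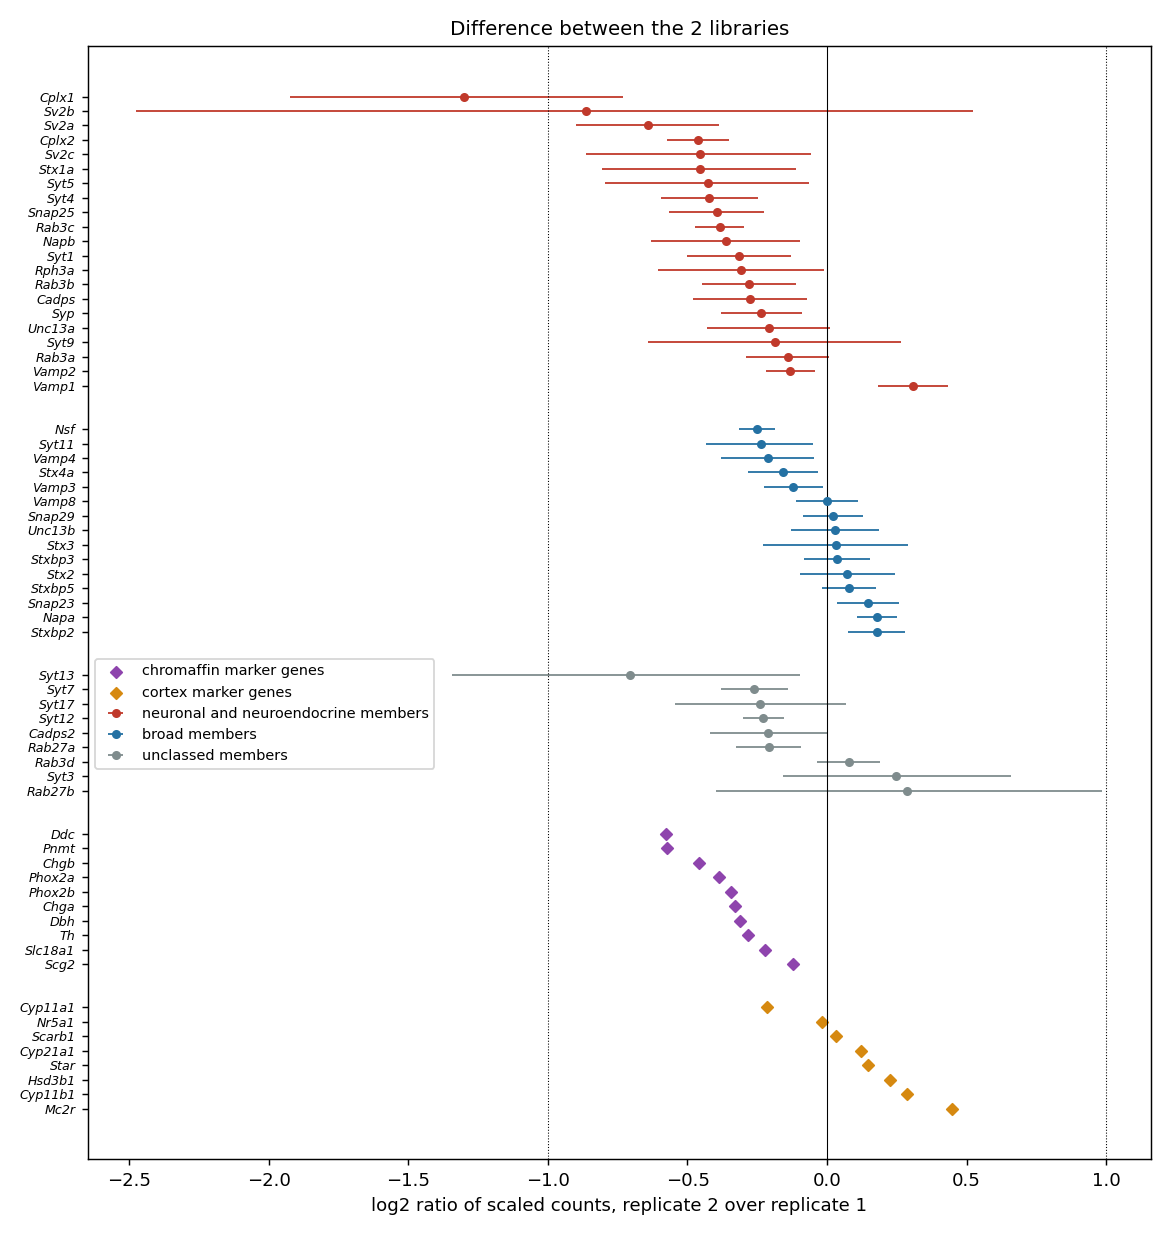
The log2 ratio of scaled counts, replicate 2 over replicate 1, for the 45 members at a mean of 10 counts or more, with exact 95% intervals for counting error, sorted within class. Diamonds are the chromaffin and cortex marker genes. Dotted lines mark 2-fold. Of the neuronal and neuroendocrine members, 20 of 21 lie left of 0, as do all 10 chromaffin markers.

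At the transcript level, 40 members had a mean of 1 TPM or more. The same transcript led in both libraries for 35 of them, and it also led by the mean of the libraries in the second quantification for 26. It led in each library of both quantifications for 23. These counts include 3 members, Syt4, Snap29 and Cplx2, that have a single annotated transcript and so could not differ. Snap25 was split nearly evenly. The SNAP-25a transcript, with the upstream exon, held 51.9% and 43.7% of its TPM, and the SNAP-25b transcript held 46.3% and 53.8%. The former had 6.52 and 4.17 TPM, and the latter 5.82 and 5.14. The leading form therefore changed between the libraries, and the second quantification gave 49.2% for SNAP-25a. These transcripts also have different annotated lengths, 1014 and 2116 bases, so the split rests on more than the exon printed above. For Stx3, the form with the upstream exon held 71.2% and 58.3%. The form with the downstream exon held 28.8% and 26.6% in the first table, but 0.518% and 5.78% in the second. The upstream form thus led in both tables, while they gave different levels for the downstream form.

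In the first table, protein-coding transcripts led in 38 of the 40 members, and the exceptions were Stx1a and Napb, both neuronal. By the mean of the libraries in the second table, a decay-annotated transcript also led in the broad Stx4a. There Stx4a-209 held 39.7%, beside 38.6% for Stx4a-201. In the first table, transcripts not annotated as protein coding held a median of 11.8% of a member's TPM and over 20% in 13 members. In Stx1a they held 74.1% and 92.9%, so that its protein-coding TPM was 0.800 and 0.190. The leading transcript of Stx1a differed between the libraries, as Stx1a-205, a retained intron form, held 43.2% and 0%, and Stx1a-204, annotated for nonsense-mediated decay, held 14.4% and 59.0%. With 167 and 123 counts spread over 6 transcripts, the division among them is imprecise. In Napb, the decay-annotated Napb-202 held 57.1% and 53.2% and Napb-201, with the exon printed above, 24.6% and 15.8%. The second table put Napb-202 at 25.8% and 52.9%, so in replicate 1 it placed Napb-201 first, at 55.3%. Among abundant members, the share without protein coding in the first table was 46.0% ± 2.52 in Stxbp2, 36.2% ± 8.94 in Stxbp3, 34.2% ± 0.969 in Napa and 33.8% ± 10.7 in Snap23. These shares depended on the table, since the second gave means of 33.9%, 12.1%, 67.7% and 36.4% in the same order.

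**Figure D4:**
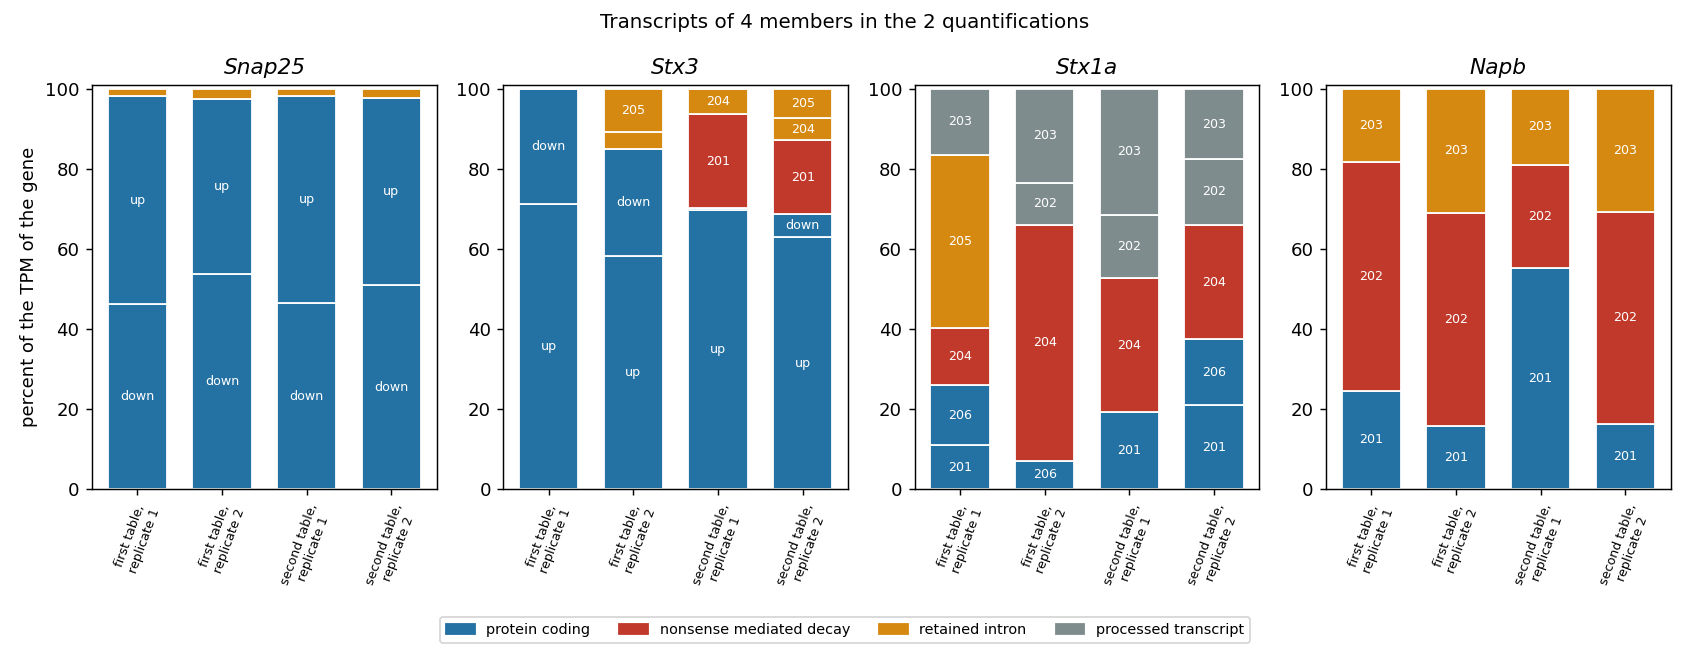
Percent of the TPM of the gene in each transcript of Snap25, Stx3, Stx1a and Napb, in both libraries and both deposited quantifications. Colours give the annotated biotype, and the segments above 5% are labelled, with up and down for the forms that hold the upstream and the downstream exon. Snap25 is divided between 2 protein-coding forms, and most of Stx1a and of Napb in the first table is outside protein-coding transcripts.

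Short annotated fragments affected some levels. Nsf had 1.51 times as much TPM in replicate 1 as in replicate 2 but only 1.19-fold more scaled counts (1.14 to 1.25). Nsf-209, a protein-coding fragment of 278 bases, was given 35.4% of its TPM in replicate 1 and 0% in replicate 2. Its full-length transcript Nsf-202 had 31.3 and 28.0 TPM. Over all genes the TPM log2 ratio lay above the count log2 ratio by a median of 0.10. Relative to that offset, Nsf lay at -0.44 and Stxbp3 at -0.24, while Unc13a lay at 0.33, Snap23 at 0.27, Cplx1 at 0.26 and Stx2 at 0.21. The levels of the 2 quantifications ranked the 47 members nearly alike, with Spearman's rho of 0.990 across genes, which are not independent. Places among the most abundant members, such as that of Nsf, differed. Among the 40 members at a mean of 1 TPM or more, the second, rescaled to the first, was highest for Snap23 at 1.74 times and lowest for Nsf at 0.704 times.

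**Figure D5:**
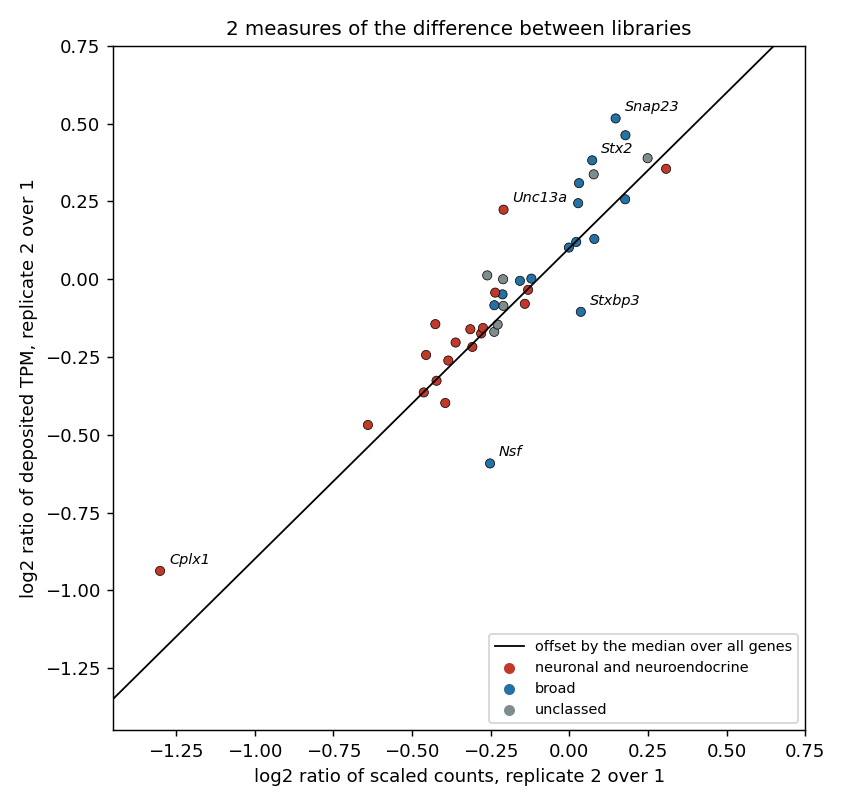
The log2 ratio of deposited TPM against the log2 ratio of scaled counts, replicate 2 over replicate 1, for members at a mean of 1 TPM or more. The line is offset by the all-gene median of 0.10, and named genes lie over 0.2 from it. Nsf lies farthest below the line and Unc13a farthest above.

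A list of 73 further genes of the pathway (other syntaxins and VAMPs, active zone proteins, synaptogyrins and the like) gave the wider picture. Of these, 53 were at 1 TPM or more in both libraries and 3 (Stx19, Cplx3 and Cplx4) were at 0 counts in both. Of 65 with enough counts, 44 were higher in replicate 1 and 21 in replicate 2, with a median log2 ratio of -0.08. Of all genes 52.1% were higher in replicate 1, with a median of -0.02. The interval spanned no difference for 37 of the 65. It left out no difference for 20 higher in replicate 1 and 8 higher in replicate 2, beside 23.3% and 21.6% of all genes. Rims4, a short RIM-family protein of the active zone, was the most abundant of the list, with 64.4 and 53.5 TPM from 10949 and 8591 counts. Its mean of 58.9 TPM lay above that of each of the members, though its range overlapped those of Napa and Vamp8, and it was 1.29-fold higher in replicate 1. The second quantification gave a different order, with Rims4 at 105 and 73.0 TPM, Syngr2 at 116 and 118, and the member Napa at 144 and 165. Next came Sec22b, a SNARE of transport between the endoplasmic reticulum and Golgi, with 57.1 and 55.7 TPM, and Stx7, an endosomal syntaxin, with 39.7 and 39.8 TPM. Sypl, a relative of synaptophysin, had 34.9 and 40.4 TPM, Vti1b, an endosomal SNARE, had 36.3 and 35.6 TPM, and Syngr2, a synaptogyrin of non-neuronal cells, had 30.2 and 33.2 TPM. Apart from Rims4, these abundant genes serve general membrane traffic.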

How the data were processed

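Total RNA-seq of 2 adrenal gland libraries was used, mapped to mm10 with GENCODE M21 per the labels and the submitters' processing notes. The name and version of the aligner are not given in the sources used here. Deposited gene tables hold expected counts and TPM for each gene, with interval bounds of TPM that were read as a signal value in TPM, and the deposited transcript tables hold each transcript's percent of the TPM of its gene. The authors also deposited a second transcript table with estimated counts and TPM, which served as an alternative. Of 94 TPM values of the members, 6 lay outside the deposited interval. Replicate 1 had 3.42e+07 gene counts and replicate 2 had 3.60e+07, with 0.909% and 0.760% of all counts on ERCC spike-ins. Rows that name no gene held 5.79 and 1 counts and were left out. A count of 0 was read with a floor of 3 counts.

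Expected counts were scaled by TMM (edgeR 4.0.16, R 4.3.3) and compared as log2 ratios with a prior count of 0.5 and Clopper-Pearson 95% intervals (scipy 1.17.1), since 2 libraries of 1 group allow no test. The ratios and TMM used the expected counts as deposited, without rounding, whereas the intervals and the DESeq2 size factors used rounded counts. For 45 of 47 members the deposited counts were whole to within 0.005 in both libraries. PCR duplicates were not marked by molecular identifiers in the tables, so intervals and floors cover counting error only. Ratios were counted at a mean of 10 counts, levels as detected at 1 TPM, and genes as apart past 2-fold. Family shares are percents of the summed TPM of the listed members, without further genes of the same family. Neighbours in the order of levels were called separate where the libraries did not overlap. The ratio and interval code was tested on simulated data with 200 changed genes. All members could be named: those at a mean of 1 TPM by their values, the others by counts, and of the further pathway genes the 6 with the highest mean TPM. Other genes were named after their values were seen where they stand beside a result. The members and lists were chosen with earlier results of these data known. Alternatives were DESeq2 1.42.0 size factors, spike-in scaling, library size alone, TPM ratios with pseudocounts of 1 and 0.1, the second quantification, other count minimums, TPM rescaled to nuclear protein-coding genes, and each library alone. A planned comparison of protein sequences between paralogs was not made here.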

Additional observations from a re-analysis of the deposited data

How the results depend on the processing

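No paired analysis was possible because the 2 libraries form 1 group. The number of neuronal and neuroendocrine members higher in replicate 1 was 17 to 21 under all alternatives run. DESeq2 size factors gave a broad median of 0.044 in place of 0.028, and 1 member, Vamp8, changed sign. With spike-in scaling, the median log2 ratio was -0.16 for the neuronal class, 0.23 for the broad class (3 of 15 higher in replicate 1) and -0.0077 for all members, and 6 members changed sign. Of these, Stx4a, Vamp2 and Vamp3, whose intervals left out no difference, went to 0.048, 0.074 and 0.084, and Syt9, Rab3a and Vamp8, whose intervals spanned it, to 0.018, 0.063 and 0.203. This scaling moves all genes alike. With library size alone, 10 broad members were higher in replicate 1 and their median reversed to -0.029. With TPM and a pseudocount of 1, the neuronal median was -0.13, and with 0.1 it was -0.17. Under both, 0 members passed 2-fold, in the neuronal class and in all, and 5 members changed sign: Syt7 went to 0.011 and 0.012, Vamp3 to 0.0019 and 0.0020, Vamp8 to 0.10 in both, Unc13a to 0.147 and 0.213, and Stxbp3 to -0.10 in both. Members past 2-fold numbered 2 in the second quantification (2 in the neuronal class), 3 with no count minimum (2 in the neuronal class) and 0 in both at a mean of 100 counts, a minimum that leaves Cplx1 out. The second quantification reversed the broad median to -0.021 and gave shares of 68.3% for Snap23, 70.5% for Stx4a, 38.6% for Vamp8, 82.4% for Cplx2, 29.4% for Rab3a, 62.6% for Unc13b, 98.1% for Napa, 80.2% for Sv2a, 97.4% for Rab27a and 39.3% for the decay-annotated transcript of Napb. Counts in place of TPM gave 49.5% for Syt12, 40.2% for Snap23, 52.1% for Stx4a, 20.2% for Vamp8, 95.8% for Cplx2, 15.6% for Rab3a, 65.9% for Unc13b, 51.5% for Cadps, 92.9% for Napa, 69.0% for Sv2a and 96.8% for Rab27a. Rescaling TPM to protein-coding genes moved all 47 levels beyond their SD. Those genes held 31.7% and 35.6% of TPM in replicates 1 and 2, so this rescaling raises every level by the same factor within a library. With 1 library left out, the shares ranged from 17.6% to 27.0% for Snap25 and 47.2% to 58.2% for Snap23. With 2 libraries, spread is poorly known, and members under 100 counts carry wide intervals.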
